A study of Mus musculus with 16 samples.

Results

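A set of genes was followed whose products carry dietary fat from the gut lumen into the lymph, and they made up 10 of the 46078 genes counted. They were Cd36, Fabp1, Fabp2, Mogat2, Dgat1, Mttp, Apob, Apoa1, Apoa4 and Apoc3, chosen by symbol, and each matched exactly 1 Ensembl gene. RNA was sequenced from ileum mucosa of 16 C57Bl/6 mice labelled as 8 weeks old, with 4 mice in each of the groups female Slfn3KO, female WT, male Slfn3KO and male WT. Slfn3KO mice carried a knockout of Slfn3, WT mice were their littermates, each library was 1 mouse, and the labels name no treatment. An older age at tissue collection stands in the methods text of the paper. The comparison of genotypes asked whether loss of Slfn3 moved these genes, and their levels were also set against Slc2a2, which encodes the glucose transporter GLUT2 and falls along the bowel from jejunum to distal ileum, as a measure of where along the bowel the mucosa was taken.

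Enterocytes take up fatty acids and monoacylglycerol at the brush border, rebuild them into triglyceride at the endoplasmic reticulum and load the triglyceride onto a large apolipoprotein. The particle that results, the chylomicron, gains further apolipoproteins, passes through the Golgi apparatus and leaves through the basolateral membrane into the lacteals. Most fat is absorbed in the jejunum, and many genes of the pathway are expressed less in the ileum than further up.

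Libraries held 20823279 to 30813117 counts over all genes, and these raw counts were scaled here to depth-normalized counts (CPM, a share of all counts) with TMM factors. A floor of 3 counts came to 0.0974 to 0.144 CPM. No molecular identifiers were used, so this floor speaks of counting error alone. Slfn3, the gene deleted in the knockout, had 0 to 2 counts in each Slfn3KO library and 0 to 19 in each WT library, so that these libraries give little check of the genotype label. In 4 WT libraries, female WT 3 and 4 and male WT 3 and 4, Xist and Ddx3y went against the sex label, with Xist at 0.124 and 0 CPM in the 2 labelled female and 437 and 401 CPM in the 2 labelled male. The same 4 libraries held 376, 499, 770.0 and 164 CPM summed over 9 B cell and follicle markers, against 1.98 to 115 CPM in the other 12. The labels were kept, and female and male below mean the label. Results were also computed without these 4 libraries. Markers of hepatocytes summed to 3.25 to 17.9 CPM, and the adipocyte markers to 0 to 12.2 CPM. Enterocyte markers were high in every library, summing over 9 genes to 17495 to 49332 CPM. Their ranges were 17495 to 32941 CPM in female Slfn3KO, 26587 to 49332 CPM in female WT, 29132 to 41159 CPM in male Slfn3KO and 29422 to 43579 CPM in male WT. In bulk mucosa, fewer enterocytes and less RNA per enterocyte cannot be told apart.

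The 3 genes of the apolipoprotein cluster lie side by side on chromosome 9 of mm10, Apoa1 at chr9:46228580-46230466 on the plus strand, Apoc3 at chr9:46232933-46235636 on the minus strand and Apoa4 at chr9:46240696-46243459 on the plus strand. Mttp (chr3:138089854-138144968) and Fabp2 (chr3:122895072-122899506) both lie on chromosome 3, and the other 5 lie on 5 further chromosomes. The deposited counting was stranded, and 4 of the 10 genes, Fabp2, Mttp, Apoa4 and Mogat2, overlap an annotated gene on the opposite strand only.

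RefSeq windows around the start site (GRCm38.p6, 250 bases before to 50 after) were given for 7 of the 10 genes and not for Apoc3, Dgat1 and Mogat2. The 150 bases just before the first annotated start are shown for Fabp1, which had the steepest relation to Slc2a2 among the 10, and for Apob, which had the shallowest. The Fabp1 stretch is chr6:71199677-71199826 and the Apob stretch is chr12:7977498-7977647, both on the plus strand and written 5′ to 3′, with the letters TATAAA in capitals at position -31 of Apob, counted back from its first annotated start.
Fabp1: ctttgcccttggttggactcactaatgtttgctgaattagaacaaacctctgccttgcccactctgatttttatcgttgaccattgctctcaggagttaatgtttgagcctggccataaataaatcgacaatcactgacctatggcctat
Apob: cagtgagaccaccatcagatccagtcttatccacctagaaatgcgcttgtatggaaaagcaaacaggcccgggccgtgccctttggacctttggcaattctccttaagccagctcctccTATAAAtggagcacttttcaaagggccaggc
An HNF4 site was searched as CAAAGTCCA and a GATA site as AGATAA, each on both strands, and the letters of the one do not hold those of the other. The HNF4 letters stood in 156 of 32851 RefSeq windows (0.475%) and the GATA letters in 3672 (11.2%), and neither was found in the 7 windows of these genes. TATAAA, the core promoter letters, was added after the others had been searched and stood in 4473 of all windows (13.6%) and in the full windows of Apob and Fabp1. Counted from the RefSeq start it stood at -60 in Apob and at -30 in Fabp1. In Fabp1 that place lies past the end of the stretch printed above. These matches describe letters in a window only.

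Scaled by exon length and depth (RPKM), the 10 genes spanned levels from abundant to rare. Over the 16 mice, Fabp2, the intestinal fatty acid binding protein, had the highest mean at 10163 ± 6358 RPKM (SD, n = 16), followed by Apoa1 at 5941 ± 3026 RPKM. Apoa4 came next by mean at 534 ± 551 RPKM, though its median of 297 RPKM lay near those of Dgat1 (284) and Apob (274). The next genes, 4 in number, did not differ in order beyond their spread, with means of 277 ± 96.3 RPKM for Dgat1, 263 ± 87.2 for Apob, 253 ± 98.6 for Mttp and 231 ± 65.5 for Mogat2. Apoc3 stood at 99.1 ± 89.4 RPKM and Fabp1, the liver-type binding protein, at 54.6 ± 80.0 RPKM. Cd36, a fatty acid translocase of the cell membrane, was lowest at 2.91 ± 3.72 RPKM. Together the 10 genes took from 0.750% of counts in female Slfn3KO 2 to 4.19% in female WT 1.

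**Figure D1:**
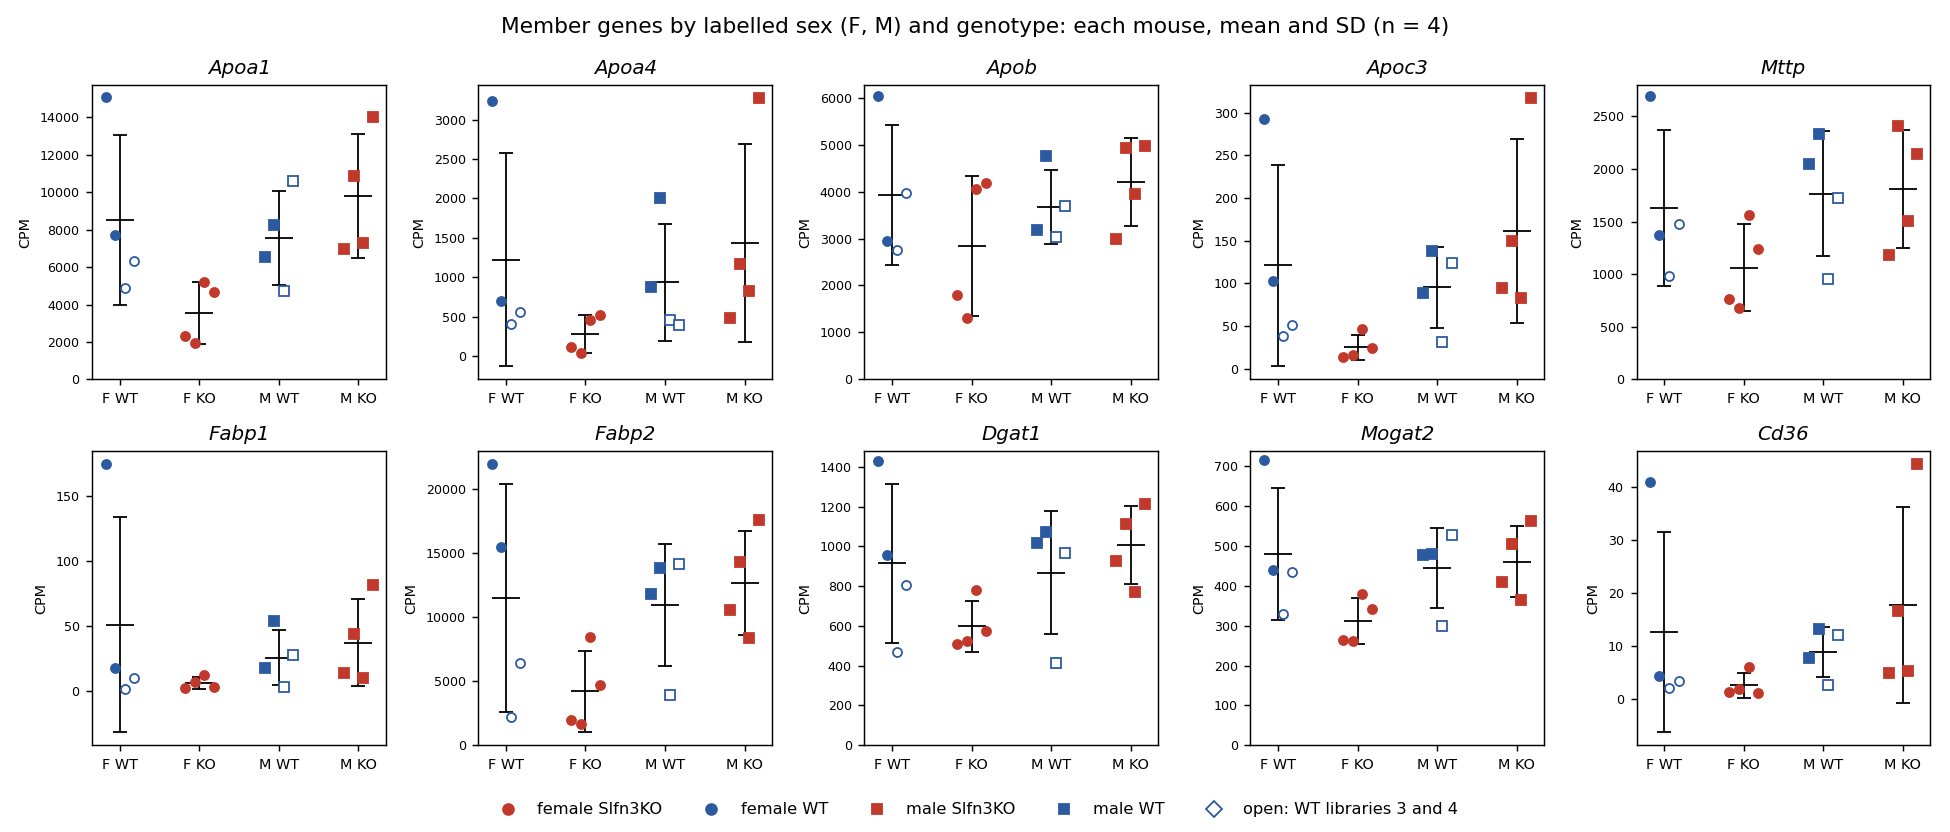
Each panel plots 1 gene in CPM on a linear axis, with 1 point per mouse, a horizontal line at the mean and whiskers of 1 SD (n = 4) for the groups by labelled sex (F, M) and genotype (KO is Slfn3KO), with open symbols for the WT libraries numbered 3 and 4. Female WT 1 is the highest female mouse in all 10 panels, and the 2 genotypes overlap within each labelled sex in every panel.

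At the point of uptake, Cd36 and the fatty acid binding proteins varied widely between mice, over 87.6-fold for Fabp1 and 41.0-fold for Cd36 and 13.7-fold for Fabp2 from the lowest to the highest library. Fabp1, which carries fatty acids inside the enterocyte, was 2.79, 6.99, 12.5 and 3.17 CPM in female Slfn3KO mice 1 to 4 and 174, 18.3, 1.99 and 10.3 CPM in female WT mice 1 to 4. In male Slfn3KO mice it was 14, 43.9, 9.95 and 81.7 CPM, and in male WT mice 18.1, 53.8, 3.33 and 27.7 CPM. Female WT 1 alone stood far above all others for Fabp1, and of the remaining female WT mice 1 lay below, 1 within and 1 above the range of the female Slfn3KO mice. Fabp2 was 1901, 1608, 8424 and 4699 CPM in female Slfn3KO mice against 21960.2, 15471, 2119.8 and 6422 CPM in female WT mice. Males held 10502, 14289, 8316 and 17573 CPM of Fabp2 in Slfn3KO and 11801, 13815, 3901 and 14119 CPM in WT. The 5 libraries lowest in Fabp2 were female Slfn3KO 1, 2 and 4, female WT 3 and male WT 3. For Cd36 the female values were 1.25, 1.80, 6.02 and 1.08 CPM in Slfn3KO and 40.9, 4.23, 1.99 and 3.28 CPM in WT. The male values of Cd36 were 4.90, 16.7, 5.15 and 44.3 CPM in Slfn3KO and 7.61, 13.1, 2.58 and 12 CPM in WT. Female WT 1 and male Slfn3KO 4 stood well above the other 14 libraries.

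The enzymes that rebuild triglyceride varied least of the 10 genes by that ratio. Mogat2, which adds a fatty acid to monoacylglycerol, ranged over 2.73-fold in all, with 262 to 379 CPM in female Slfn3KO, 330.0 to 716 CPM in female WT, 366 to 564 CPM in male Slfn3KO and 299 to 527 CPM in male WT. Dgat1, which adds the last fatty acid, lay at 507 to 783 CPM in female Slfn3KO, 469 to 1429 CPM in female WT, 770.4 to 1216 CPM in male Slfn3KO and 412 to 1075 CPM in male WT. For both enzymes the 2 lowest female Slfn3KO mice were 1 and 2, and the group ranges overlapped in each labelled sex.

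At particle assembly, Mttp, the transfer protein that lipidates apolipoprotein B, was 682 to 1566 CPM in female Slfn3KO, 982 to 2697 CPM in female WT, 1186 to 2407 CPM in male Slfn3KO and 953 to 2334 CPM in male WT. Apob, which encodes the structural protein of the particle, was 1798, 1312, 4051 and 4179 CPM in female Slfn3KO mice 1 to 4 and 6038, 2952, 2766 and 3963 CPM in female WT mice. In males Apob was 2990.1, 4929.7, 3959 and 4968 CPM in Slfn3KO and 3179, 4770.2, 3031 and 3685 CPM in WT. Female Slfn3KO 1 and 2 had the lowest Apob of all 16 mice, while female Slfn3KO 3 and 4 were above 3 of the 4 female WT mice.

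Among the exchangeable apolipoproteins, Apoa1, the main protein of high density lipoprotein, was 2298, 1922, 5226 and 4677 CPM in female Slfn3KO mice 1 to 4 and 15079.8, 7731, 4863 and 6351 CPM in female WT mice. Male Slfn3KO mice had 6987, 10845, 7301 and 14045 CPM of Apoa1 and male WT mice 6547, 8273, 4733 and 10609.8 CPM. Female Slfn3KO 1 and 2 were again the lowest of the 16. Apoa4, which is made on fat feeding and enlarges the particle, was 112, 46.5, 454 and 517 CPM in female Slfn3KO mice and 3239.9, 694, 405 and 562 CPM in female WT mice. In males Apoa4 was 486, 1169, 822 and 3269 CPM in Slfn3KO and 882, 2001, 459 and 401 CPM in WT, and the highest and lowest of the 16 libraries differed by 70.3-fold. Apoc3, an inhibitor of lipoprotein lipase, was 13.2, 16.1, 45.9 and 23.9 CPM in female Slfn3KO mice against 293, 102, 37.7 and 51.2 CPM in female WT mice. Its male levels were 94.9, 149, 83.1 and 317 CPM in Slfn3KO and 88.3, 138, 31.0 and 124 CPM in WT. For Apoc3 the highest female Slfn3KO mouse exceeded only the lowest female WT mouse, female WT 3.

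None of the 10 genes passed the threshold between Slfn3KO and WT over all 16 mice, where 0 of 14822 genes tested passed (0%). A gene had to reach an adjusted p (Benjamini-Hochberg) under 0.05 together with a 1.5-fold difference or more in edgeR's quasi-likelihood test with labelled sex as a covariate. At an unadjusted p under 0.05 with the same fold, 984 genes (6.64%) passed and again 0 of the 10, and DESeq2's Wald test called 54 genes and 0 of the 10. All 10 log2 fold changes were below zero, as were 50.7% of all genes, with a median of -0.53 against -0.00 over all genes tested. They ran from -1.20 (SE 1.01, adjusted p = 0.651 in edgeR) for Fabp1 to -0.14 (SE 0.260, adjusted p = 0.838) for Apob. The 10 genes went together with Slc2a2 over these mice, as given below. Their shared sign, here and within each labelled sex, is therefore not 10 separate observations. Mogat2 had the smallest adjusted p of the 10, 0.556 in edgeR at a log2 fold change of -0.29. Slc2a2 itself stood at -2.29 (SE 1.4, adjusted p = 0.540 in edgeR). Levels of the 2 genotypes overlapped for all 10 genes, and 0.027% of genes tested had no overlap. The median of the 10 was -1.0 without the 4 mismatched libraries and -0.11 without the 1 library female WT 1.

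Mice labelled female held lower group means in Slfn3KO than in WT for each of the 10 genes (51.1% of all genes tested had a log2 fold change below zero), though none passed the adjusted threshold, as none of 14064 genes did (0%). Apoc3 had a mean of 24.8 ± 14.8 CPM in Slfn3KO and 121 ± 118 CPM in WT (SD, n = 4 each), with a log2 fold change of -2.29 (SE 0.694, adjusted p = 0.237 in edgeR). For Fabp1 the log2 fold change was -3.00 (SE 1.22, adjusted p = 0.277 in edgeR). That of Cd36 was -2.30, of Apoa4 -2.11, of Fabp2 -1.46 and of Apoa1 -1.27. Mogat2, Dgat1, Mttp and Apob lay between -0.63 and -0.47. The median was -1.36 over the 10 genes and -0.01 over all genes tested. At an unadjusted p under 0.05 with the fold limit, Apoa1, Apoa4, Apoc3, Fabp1 and Mogat2 were lower, 5 of 10, against 5.69% of all genes (9.71% in either direction). Levels of the 2 genotypes overlapped for all 10 genes, and 7.89% of all genes had no overlap. DESeq2's Wald test called 506 genes and 1 of the 10, Apoc3 (log2 fold change -2.31, adjusted p = 0.0142). Slc2a2 was 0.516, 0.572, 4.31 and 1.04 CPM in female Slfn3KO mice and 150.4, 62.6, 1.12 and 2.45 CPM in female WT mice, with a log2 fold change of -5.05 (SE 1.55, adjusted p = 0.237 in edgeR). The female WT group held its 2 sex-mismatched libraries at the low end of Slc2a2, and without the 4 mismatched libraries the median of the 10 genes was -1.93 with adjusted p from 0.109 to 0.473 in edgeR. Without female WT 1 it was -0.53, with Fabp1 at -0.69, Cd36 at -0.32, Apoa4 at -0.96 and Apoc3 at -1.36. Markers of other cells moved in the same comparison, with 0 genes past the adjusted threshold in edgeR. All 5 Paneth cell markers were above zero in Slfn3KO (median log2 fold change 1.62, 5 at an unadjusted p under 0.05), and their summed level was 5696 to 11784 CPM in female Slfn3KO and 1050.4 to 4931 CPM in female WT. All 9 B cell and follicle markers were below zero (median -3.56, 9 at an unadjusted p under 0.05), with sums of 7.72 to 45.4 CPM against 15.7 to 499 CPM. All 9 enterocyte markers were below zero as well (median -0.52, 0 at an unadjusted p under 0.05), and the 4 smooth muscle markers tested were above (median 1.67, 1 at an unadjusted p under 0.05). All 5 T cell markers were below zero (median -0.44, 2 at an unadjusted p under 0.05). Goblet cell markers were mixed, with 2 above zero (1 at an unadjusted p under 0.05) and 3 below. The part of these cells in the values of the 10 genes was not tested.

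Mice labelled male showed the opposite sign, with all 10 log2 fold changes above zero (50.4% of all genes tested lay below) and none past the adjusted threshold, as none of 14124 genes was (0%). At an unadjusted p under 0.05 with the fold limit 272 genes passed (1.93%) and 0 of the 10, and DESeq2 called 14 genes and 0 of the 10. Genotypes overlapped for all 10 genes, while 2.36% of all genes had no overlap. The largest was Cd36 at 1.01 (SE 0.764, adjusted p = 0.925 in edgeR), with means of 17.8 ± 18.5 CPM in Slfn3KO and 8.82 ± 4.79 CPM in WT (SD, n = 4 each). Apoc3 followed at 0.76, Apoa4 at 0.61 and Fabp1 at 0.54, and the smallest was Mttp at 0.04. Slc2a2 stood at 0.04 (SE 1.12, adjusted p = 0.997 in edgeR). Summed adipocyte markers were 0.0360, 9.56, 1.13 and 12.2 CPM in male Slfn3KO mice 1 to 4 and at most 0.736 CPM in male WT. Cd36 in those Slfn3KO mice was 4.90, 16.7, 5.15 and 44.3 CPM. In male WT mice Cd36 was 7.61, 13.1, 2.58 and 12 CPM. Female WT mice 1 to 4 had marker sums of 0.0502, 0, 0.248 and 5.21 CPM, with Cd36 at 40.9, 4.23, 1.99 and 3.28 CPM. Female Slfn3KO mice had marker sums of at most 0.531 CPM, with Cd36 at 1.25, 1.80, 6.02 and 1.08 CPM. The part of adipocytes in these values was not tested. Without the 4 mismatched libraries the median of the 10 genes was 0.02 in place of 0.30, and Apoa4, Fabp2, Mttp, Dgat1 and Mogat2 turned below zero. It was 0.03 without male Slfn3KO 4 and 0.15 without male WT 3. With the replicate number as a block, the median was 0.35 and no gene was called.

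The difference between the labelled sexes, tested as the interaction of sex and genotype, did not pass for any of the 10 genes, and 0 of 14822 genes passed (0%). Female minus male, the genotype effect differed by -3.54 for Fabp1 (SE 1.58, adjusted p = 0.445 in edgeR) and by -3.31 for Cd36 (SE 1.4, adjusted p = 0.441). For Apoc3 it was -3.05 (SE 0.939, adjusted p = 0.441 in edgeR). At an unadjusted p under 0.05 with the fold limit, 6.38% of all genes passed and 5 of the 10, namely Apoa1, Apoa4, Apoc3, Fabp1 and Cd36, and DESeq2 called 19 genes and 0 of the 10. Without the 4 mismatched libraries 359 genes passed the adjusted threshold and still 0 of the 10, with adjusted p from 0.0615 to 0.521 in edgeR. Without female WT 1 the differences shrank to -1.23 for Fabp1, -1.33 for Cd36 and -2.13 for Apoc3.

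**Figure D2:**
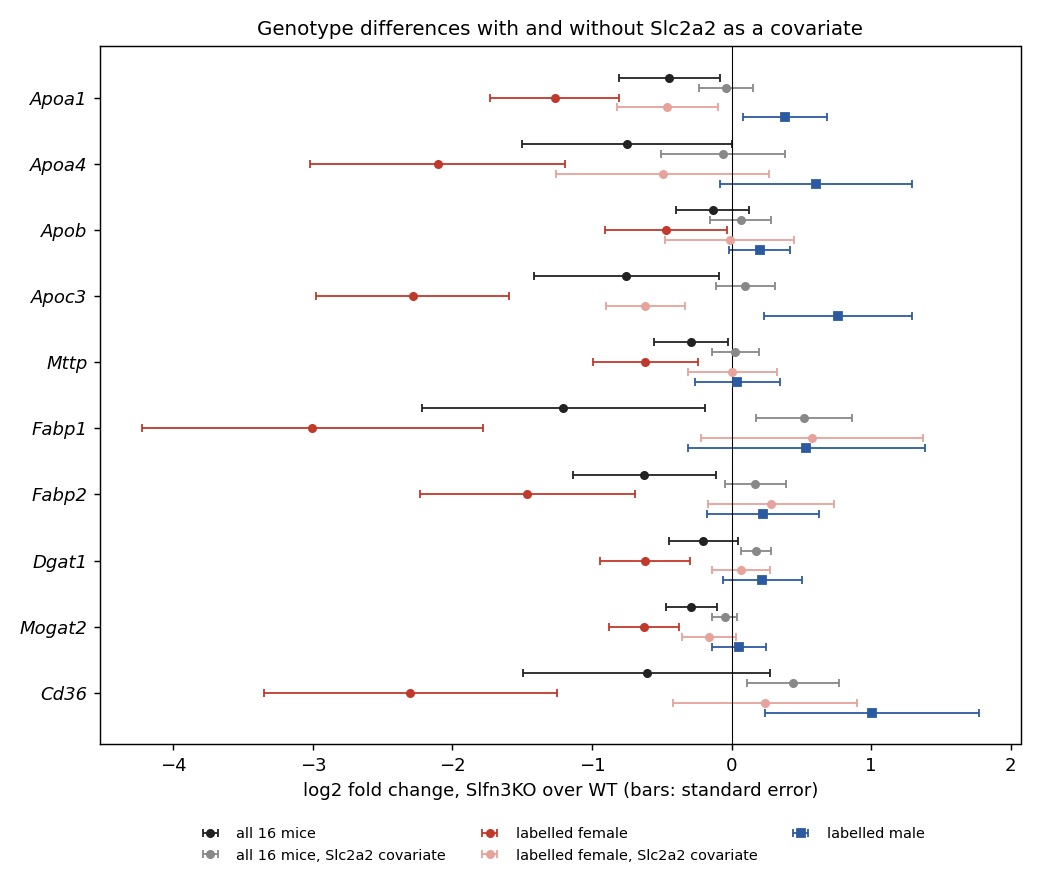
The horizontal axis gives the log2 fold change of Slfn3KO over WT with 1 standard error on each side, for each gene in all 16 mice, in mice labelled female and in mice labelled male, and with log2 Slc2a2 CPM as a covariate for all 16 and for female mice. The labelled female points lie below zero for all 10 genes, from -3.00 to -0.47, and with the covariate they lie between -0.62 and 0.58.

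The 10 genes were next set against Slc2a2 over the same libraries. Slc2a2 ranged over 377-fold, from 0.516 to 194 CPM, without a break into clusters, the widest step between neighbouring libraries being 1.22 on the log2 scale. The 7 libraries at the low end were the 4 female Slfn3KO mice, female WT 3 and 4 and male WT 3, each at 4.31 CPM or below. In male mice Slc2a2 was 23.3, 52.1, 10.2 and 194 CPM in Slfn3KO and 32.9, 140.3, 2.68 and 95.1 CPM in WT. Whether low Slc2a2 marks a more distal piece of bowel or a lower Slc2a2 level at the same place cannot be told apart for the female Slfn3KO mice. By qPCR in a larger set of mice, the paper reports reduced mRNA of this gene (Glut2) in Slfn3KO females against WT. For its sequencing data the paper reports no significant difference in differentiation markers, Glut2 among them.

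All 10 genes were higher where Slc2a2 was higher, with labelled sex and genotype as covariates, and passed an adjusted p under 0.05. Of all 14821 genes tested, 15.8% passed in that direction and 14.9% in the other. The median change per doubling of Slc2a2 CPM was 0.32 on the log2 scale over the 10 genes and -0.01 over all genes. The slopes of the 10 ranked between the 94.7 and 99.9 percentile of all slopes. The uptake and binding genes were steep, with log2 changes per doubling of 0.69 (SE 0.0686, adjusted p = 2.09e-05) for Fabp1, 0.58 (SE 0.0644, adjusted p = 4.44e-05) for Cd36 and 0.40 (SE 0.0469, adjusted p = 5.52e-05) for Fabp2 in edgeR. The apolipoproteins of the chromosome 9 cluster gave 0.46 (SE 0.0425, adjusted p = 1.08e-05) for Apoc3, 0.42 (SE 0.0879, adjusted p = 0.00332) for Apoa4 and 0.25 (SE 0.0399, adjusted p = 0.000601) for Apoa1 in edgeR. The enzymes and the assembly genes gave smaller slopes, of 0.20 (SE 0.0230, adjusted p = 5.27e-05) for Dgat1, 0.18 (SE 0.0358, adjusted p = 0.00207) for Mttp and 0.14 (SE 0.0187, adjusted p = 0.000152) for Mogat2 in edgeR. Apob was the shallowest of all at 0.13 (SE 0.0452, adjusted p = 0.0398) in edgeR. Its call was lost in 13 of the 16 fits that left out 1 mouse, with slopes from 0.10 to 0.16 over all 16 fits and adjusted p in edgeR from 0.0513 (without male Slfn3KO 1) to 0.241 (without female WT 1) where it was lost. The Apoa4 call was lost without female WT 1 (slope 0.35, adjusted p = 0.0627 in edgeR). Without the 4 mismatched libraries 9 of the 10 passed, all but Apob (slope 0.20, adjusted p = 0.0627 in edgeR).

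**Figure D3:**
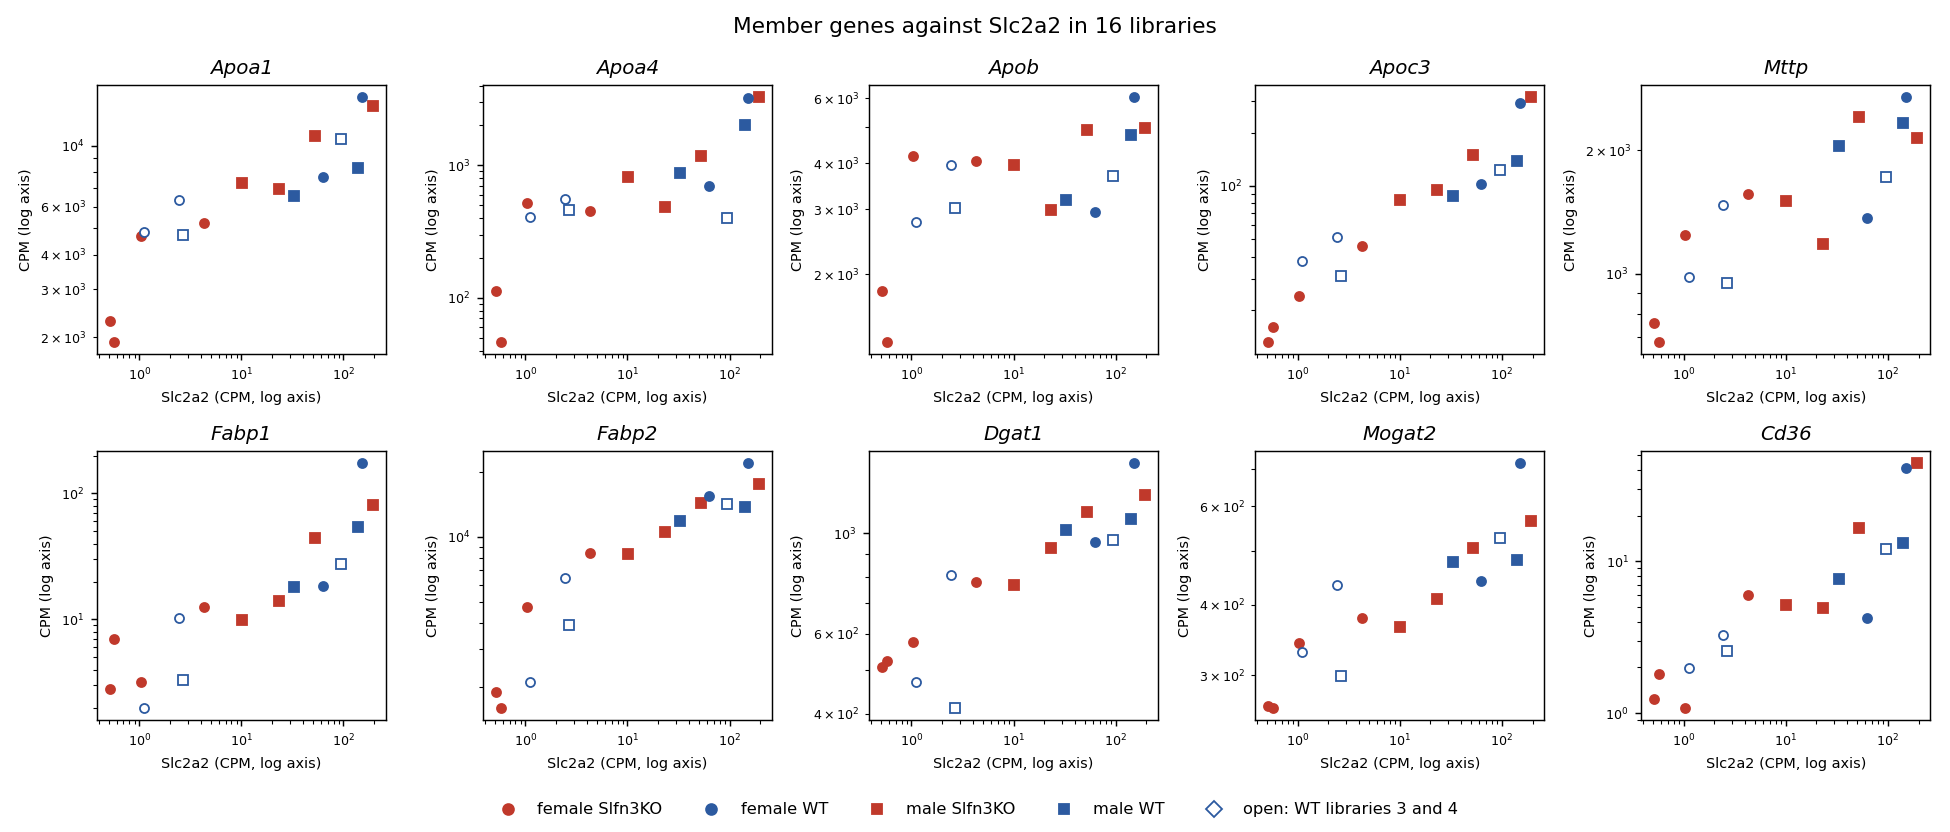
Each panel plots the CPM of 1 gene against the CPM of Slc2a2 on log axes, 1 point per library, with colours for genotype, shapes for labelled sex and open symbols for the WT libraries numbered 3 and 4. Points rise from the lower left to the upper right in each panel, tightly for Apoc3 (Pearson r = 0.96) and loosely for Apob (r = 0.67).

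Library by library, Pearson's r with Slc2a2 on log2 CPM over 16 mice was between 0.67 and 0.96, in 10 correlations computed with 1 shared measure. Benjamini-Hochberg adjusted over the 10, the permutation p ran from 1.43e-05 to 0.00324 for r and from 1.67e-05 to 0.0105 for rho. The values for Apoc3 were r = 0.96 and Spearman's rho = 0.96 (permutation p = 1e-05 for each, the smallest that 100000 resamples can give). Fabp2 had r = 0.94 and rho = 0.95, and Apoa1 had r = 0.89 and rho = 0.95, with the same permutation p = 1e-05. For Fabp1, Cd36, Dgat1 and Mogat2 r was 0.90, and for Mttp it was 0.85 (permutation p = 5e-05). Apoa4 had r = 0.80 (permutation p = 4e-05) and rho = 0.75 (p = 0.00147), and Apob r = 0.67 (p = 0.00324) and rho = 0.63 (p = 0.0105). Female Slfn3KO 1 and 2 were farthest from the median of Slc2a2, and without them r was 0.46 for Apob (permutation p = 0.0936), over a narrower range of Slc2a2. With these 2 kept and the 4 mismatched libraries left out, r of Apob was 0.71 (permutation p = 0.00793). The slope call of Apob was also lost without any 1 of 13 mice, as given above. For the other 9 genes r stayed between 0.72 and 0.94 over the 14 mice other than female Slfn3KO 1 and 2.

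Each genotype was then taken alone. Among Slfn3KO mice the 4 labelled female lay at 0.516 to 4.31 CPM of Slc2a2 and the 4 labelled male at 10.2 to 194 CPM, with no overlap, so that a relation to Slc2a2 and a difference between the sexes cannot be told apart in the correlations over these 8, and 4 mice a sex are too few for a correlation within each. Over the 8 Slfn3KO mice, r was between 0.72 for Apob (exact permutation p = 0.0445) and 0.99 for Apoc3 (exact permutation p = 2.48e-05), and the order of Apoc3 was that of Slc2a2 in all 8 (rho = 1). Over the 8 WT mice, r was between 0.59 for Apob (exact permutation p = 0.119) and 0.94 for Fabp2 (exact permutation p = 0.000620). Apoa4 in WT mice gave r = 0.66 (exact permutation p = 0.0731), with male WT 4 high in Slc2a2 at 95.1 CPM and low in Apoa4 at 401 CPM. The slopes of each gene had the same sign in both genotypes. In fits over all genes with labelled sex as a covariate, Apoc3 and Cd36 passed in Slfn3KO mice alone, among 26 genes in all, and 7 of the 10 passed in WT mice alone, among 1485. Whether the slopes differed between genotypes was not tested.

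Slc2a2 is itself a gene of enterocytes, and enterocyte markers moved with it. Of 9 such markers 7 were higher with Slc2a2 and 0 lower, among them Alpi at 0.20 and Vil1 at 0.12 per doubling. Alpi and Sis of this list also vary along the bowel, so a score of the 9 markers holds bowel position as well as enterocyte amount. With that score as a further covariate, 5 of the 10 genes still passed and 851 genes in all. These were Fabp1 at 0.67 (adjusted p = 0.0117 in edgeR), Apoc3 at 0.37, Fabp2 at 0.27, Dgat1 at 0.16 and Mogat2 at 0.08. Cd36 lay just outside at 0.47 (adjusted p = 0.0502 in edgeR), Apoa4 and Apoa1 lay at 0.12 and 0.10, and Apob turned to -0.06. Other markers of the proximal bowel followed Slc2a2, 6 of 6, with the lactase gene Lct at 1.37 and the transcription factor Gata4 at 0.70 per doubling. Of 7 distal markers 0 were higher and 2 lower, the bile acid transporter Slc10a2 at -0.30 and the bile acid receptor Nr1h4 at -0.18. With the score of the proximal list without Slc2a2 in its place all 10 genes passed, and with the distal list, its sign turned, Fabp1 and Cd36 passed.

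Adding log2 Slc2a2 CPM as a covariate to the comparison of genotypes moved the median of the 10 genes from -0.53 to 0.08 over all mice and from -1.36 to -0.00 in mice labelled female. Over all mice, 7 of the 10 turned above zero, with Fabp1 at 0.52 and Cd36 at 0.44, and adjusted p was between 0.496 and 0.974 in edgeR. In mice labelled female, Apoc3 had the lowest value of the 10 at -0.62 (SE 0.283, adjusted p = 0.507 in edgeR). In that fit 96 genes passed the threshold, and 0 of the 10. Since Slc2a2 was low in all 4 female Slfn3KO mice, an effect of genotype on Slc2a2 and a difference in bowel position cannot be told apart in this fit.

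The wider pathway was described by 6 lists, of which no gene passed the threshold between genotypes in any comparison. Of 7 genes of uptake and sterol transport, 5 were higher with Slc2a2 and 1 lower. Higher were Abca1 (0.26 per doubling), which exports cholesterol, Npc1l1 (0.21), which takes it up, Slc27a4 (0.18), a fatty acid transport protein, and Abcg5 (0.12) and Abcg8 (0.12), which return sterols to the lumen. Scarb1 was lower (-0.17), and it was at most 3.50 CPM. Of 7 genes of fatty acid activation and binding, 4 were higher and 0 lower, led by Acsl5 (0.17), which makes fatty acyl-CoA. Fabp6, the ileal bile acid binding protein, did not pass (-0.09, SE 0.0992).

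Among 11 genes of glycerolipid and cholesterol esterification 6 were higher with Slc2a2, led by Soat2 (0.22), which esterifies cholesterol, and Agpat3 (0.16). Gpam (-0.15) and Gpat4 (-0.09), acyltransferases of the glycerol phosphate route, were lower. Dgat2 (0.13), the second enzyme of the last step, was higher, as was Gpat3 (0.12), another acyltransferase of the glycerol phosphate route. Of 14 further genes of chylomicron proteins, assembly and export that were tested, 9 were higher and 0 lower. They included Apoc2 (0.27), the activator of lipoprotein lipase, Pla2g12b (0.18) and Tm6sf2 (0.14), which act in lipoprotein lipidation, P4hb (0.10), the partner subunit of the Mttp protein, and Sar1b (0.10), a GTPase of the vesicles that carry the particle. Its relative Sar1a stood at -0.01 (adjusted p = 0.519 in edgeR), and Apobec1, which edits Apob RNA, at 0.06 (adjusted p = 0.107). Apoa5 was too low to be tested.

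Of 7 lipid droplet genes 4 were higher with Slc2a2 and 0 lower, with Cidec (0.28) and Cideb (0.14), which enlarge droplets or particles, Plin3 (0.13) and the lipase Pnpla2 (0.11). Of 13 transcriptional regulators 6 were higher and 1 lower. Creb3l3 (0.35) and Gata4 (0.70) were the steepest of these, followed by Nr1h3 (0.14), Klf4 (0.12), Hnf4g (0.12) and Gata6 (0.11). Hnf4a, a regulator of apolipoprotein genes, stood at 0.03 (adjusted p = 0.165 in edgeR). Nr1h4, the bile acid receptor, was lower at -0.18 (SE 0.0150, adjusted p = 3.31e-06) in edgeR. Over these 6 lists 34 of 59 genes tested were higher and 4 lower, against 15.8% and 14.9% of all genes.

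**Figure D4:**
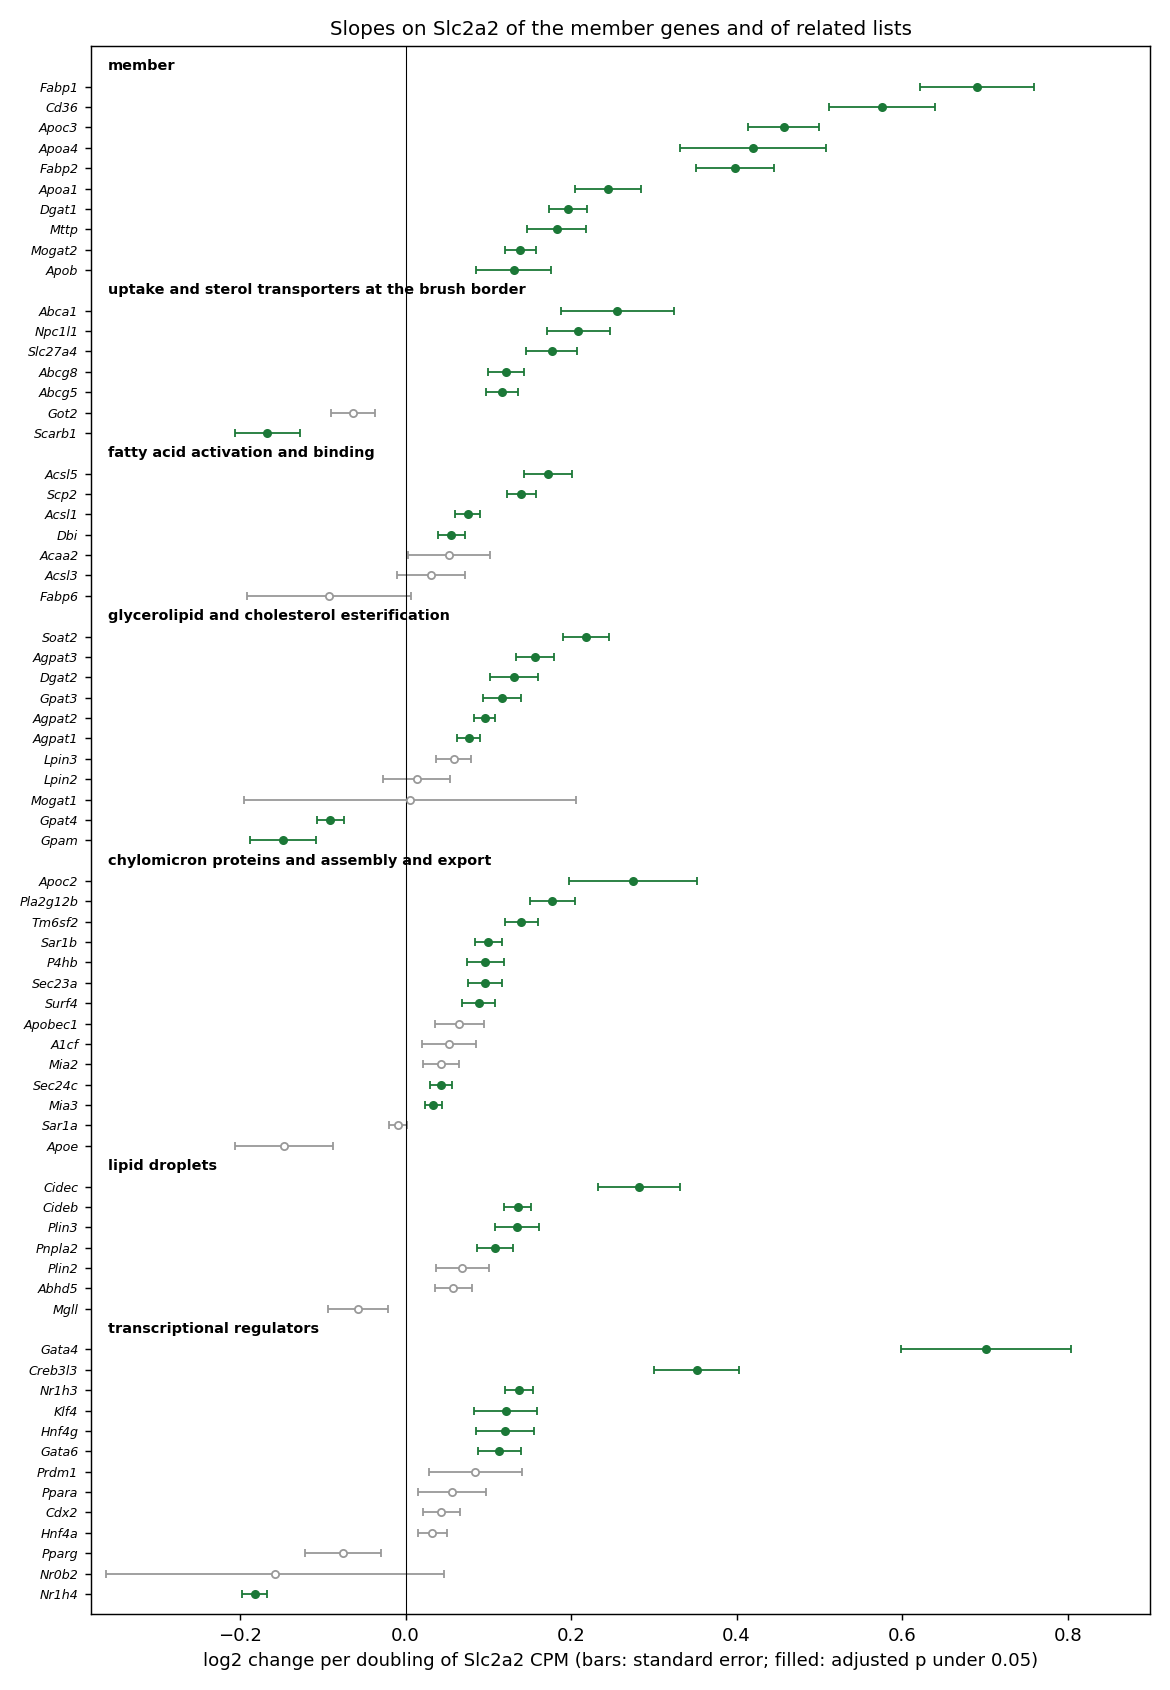
The horizontal axis gives the log2 change per doubling of Slc2a2 CPM with 1 standard error on each side, for the 10 genes and the tested genes of 6 related lists, filled where the adjusted p was under 0.05 in edgeR. The 10 genes run from 0.13 for Apob to 0.69 for Fabp1, and Gata4 at 0.70 is the one listed regulator above all of them.

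The genes most like the 10 were sought by the correlation of log2 CPM with the mean of the 10 over 16 libraries. Among the 10 most alike were Sgpl1 (Pearson r = 0.989), a lyase of sphingosine phosphate, and Spns2 (r = 0.982), an exporter of the same lipid. Cyp4f14 and Inpp5a (r = 0.981 each) came next, with the peptidase gene Pepd (r = 0.975). Tm6sf2 (r = 0.975) and Soat2 (r = 0.974) of the lists above were also among them, with Ace (r = 0.973) and Prdx5 (r = 0.972). These correlations share libraries and depth and describe likeness only.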

How the data were processed

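RNA of ileum mucosa from 16 mice was sequenced as single reads with a stranded kit. After cutadapt trimming and STAR alignment to mm10, the authors deposited raw counts per gene, made with featureCounts 1.4.6 and reverse-stranded counting per the file headers, while the paper names HTSeq. Nothing was normalized before deposit, and reads shared between near-identical genes may be split or lost. Depth was 20823279 to 30813117 counts per mouse. Samples were grouped by title and labels, and no 2 libraries of 1 group agreed within sampling noise (pairs across groups were not compared). Symbols came from GENCODE M21, which matched 45143 of 46078 identifiers.

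Counts were tested with edgeR 4.0.16 in R 4.3.3 (TMM, filterByExpr, robust quasi-likelihood F test, Benjamini-Hochberg over all genes tested), with DESeq2 1.42.0 as an alternative. A standard error was obtained from the fold change (log2) and F, as its size over the root of F. All 10 genes passed the filter in each comparison. Log2 CPM used a prior count of 2. The genotype comparison over 16 mice had labelled sex as a covariate, those within a sex none, and the slope fit sex and genotype. Slc2a2 was left out of the counts of the slope fit. Correlations used two-sided permutation tests (100000 resamples over 16 mice, exact over 8) in scipy 1.17.1. Fits were checked on simulated counts. P-values of the fits measure the spread between these mice. The permutations took no account of the groups, so p-values of the correlations also hold differences between groups.

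Replicate numbers come from the titles. Deviations of same-numbered male libraries correlated at 0.138 to 0.518, and those of female libraries at -0.362 to 0.143. Differently numbered male libraries reached 0.232 (Slfn3KO 1 with WT 2) and 0.207 (Slfn3KO 4 with WT 3). Male WT 3 and 4 also had sex transcripts against their label. Pairing by number is therefore not shown by these values, and the main fits used none.

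The genes, lists and tests were chosen with earlier results of these data known. Named were the 10 genes, Slc2a2, list genes past a threshold and genes among the 10 most alike, and 2 genes that this rule names are not reported here. Fabp6, Sar1a, Apobec1, Hnf4a and Apoa5 were named after their values were seen.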

Additional observations from a re-analysis of the deposited data

Results flagged for a closer look

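In each group of 4 mice the gap between the highest or lowest mouse and its neighbour was set against the range of the group, for the 10 genes and Slc2a2. Gaps were taken on CPM, and gaps on the log2 scale were not tested. Of 44 groups 6 had a gap above Dixon's 95% critical value for 4 samples. Chance flags about 1 group in 20 only where values are normally distributed, which was not tested for CPM. The 10 genes also went together with Slc2a2 over the same mice, so the 44 groups are not separate observations. Whether 6 of 44 is more than chance gives can therefore not be told. In female WT, mouse 1 stood apart as the highest for Apoa4 at 3239.9 CPM, for Fabp1 at 174 CPM and for Cd36 at 40.9 CPM. Female Slfn3KO 3 stood apart as the highest of its group for Cd36 at 6.02 CPM and for Slc2a2 at 4.31 CPM. Male WT 3, a library whose sex transcripts went against its label, was the low one of its group for Dgat1 at 412 CPM. Leaving out female WT 1 moved the median log2 fold change of the 10 genes from -1.36 to -0.53 in mice labelled female. The cause of these gaps was not tested.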

How the results depend on the processing

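No alternative made any of the 10 genes pass between Slfn3KO and WT at an adjusted p, except Apoc3 in mice labelled female under DESeq2 (1 gene of the 10), and RLE factors turned no sign. Counts over all genes did move. DESeq2 called 54 genes over all mice, 14 in males, 506 in females and 19 for the difference between the sexes, and the unadjusted p called 984, 272, 1366 and 946, with 5 of the 10 genes in females and 5 for the difference. Slc2a2 as a covariate gave 1 gene over all mice and 96 in females, and leaving out the 4 WT libraries numbered 3 and 4 gave 359 for the difference between the sexes. The cause was not tested.

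Directions turned with Slc2a2 as a covariate, without the WT libraries numbered 3 and 4, and without single mice. With Slc2a2 as a covariate, over all mice Apob went to 0.0645, Apoc3 to 0.10, Mttp to 0.0262, Fabp1 to 0.52, Fabp2 to 0.17, Dgat1 to 0.18 and Cd36 to 0.44. In females Mttp went to 0.00693, Fabp1 to 0.58, Fabp2 to 0.28, Dgat1 to 0.0685 and Cd36 to 0.24, and Fabp1 to 0.13 for the difference between the sexes. In males, leaving out WT libraries 3 and 4 gave Apoa4 -0.0141, Mttp -0.27, Fabp2 -0.0123, Dgat1 -0.0522 and Mogat2 -0.0491. Leaving out 1 mouse at a time, values over all mice ran from -0.22 to 0.0238 for Apob and from -1.18 to 0.42 for Cd36. In males they ran from -0.17 to 1.30 for Apoa4, -0.16 to 0.21 for Mttp, -0.17 to 1.21 for Fabp1, -0.0495 to 0.38 for Fabp2, -0.00529 to 0.35 for Dgat1 and -0.0859 to 0.15 for Mogat2. None of the 10 genes was called in any of these fits.

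The slope on Slc2a2 passed for 4549 genes, and for 1793 with the replicate block, which kept all 10 genes of the pathway and changed no call of them in any comparison. In every comparison the block joined same-numbered libraries within a labelled sex, females included. The distal marker score in place of Slc2a2 gave 138 genes and 2 of the 10, the enterocyte score as a covariate 851 and 5 (Apob at -0.0579), Slfn3KO mice alone 26 and 2, and WT mice alone 1485. Leaving out 1 mouse gave 1931 (without female WT 1) to 4899 genes and 8 to 10 of the 10. With no filter on low counts Apob lost its call (adjusted p = 0.0603 in edgeR). Depth was lowest for Cd36, with 27 to 934 counts per library, and for Fabp1, with 48 to 3471, and for both the mice of 1 group differed several-fold.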

Other observations

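The related lists were also read between genotypes, as values only, since none of their genes passed the adjusted threshold in edgeR in any comparison. In mice labelled female, log2 fold changes of Slfn3KO against WT were below zero for 6 of 7 genes of uptake and sterol transport, 6 of 7 of fatty acid activation and binding, 8 of 10 of esterification, 13 of 14 of chylomicron proteins, assembly and export, 6 of 7 of lipid droplets and 10 of 13 regulators, beside 51.1% of all genes. The lowest was the regulator Nr0b2 at -3.12, a gene at 19 CPM in female WT 3, 8.21 CPM in female WT 2 and at most 1.13 CPM in the other female mice, whose slope on Slc2a2 was -0.16 (adjusted p = 0.576 in edgeR). Gata4 at -1.82, Abca1 at -1.51, Creb3l3 at -1.29, Cidec at -1.23 and Apoc2 at -1.21 came next, and these 5 rose with Slc2a2. In mice labelled male the same lists had 3 of 7, 2 of 7, 5 of 10, 9 of 14, 1 of 7 and 3 of 12 genes below zero, beside 50.4% of all genes. These 6 genes were chosen after their values were seen.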
